A study of Mus musculus with 16 samples.

Results

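The MYC, MAX and MXD network was followed through 10 mouse genes: Myc, Mycn, Mycl, Max, Mxd1, Mxd3, Mxd4, Mxi1, Mnt and Mga. They were taken by family name from an array on which 20284 genes had a probe, and they were covered by 12 of 55681 probes, with 2 each for Mxd1 and Mxd4. The family was chosen by the Mycn values of 32Dcl.3 cells, much lower after transduction, so those values are given as a description with no test. The data came from 16 single-colour Agilent arrays, 2 for each of 8 groups. The first system was progenitors isolated from mouse bone marrow: MDPs (monocyte and dendritic cell progenitors) from Irf8KO and WT animals, and cMoPs (common monocyte progenitors, a later stage) from Irf8KO and WT animals. The second was 32Dcl.3, a mouse myeloid progenitor line kept in WEHI3B conditioned medium. These cells received C/EBPalpha (empty MSCV-CD8 with MSCV-C/EBPalpha-puro), IRF8 (MSCV-IRF8-CD8 with empty MSCV-puro), both factors (MSCV-IRF8-CD8 with MSCV-C/EBPalpha-puro), or empty MSCV-CD8 and MSCV-puro, and were collected at day 3 after retroviral transduction. All 4 groups of the line therefore carried both vector backbones, and the factors came from viral promoters in a single cultured line. C/EBPalpha and IRF8 are transcription factors of the granulocyte and monocyte lineages. The comparisons asked how each factor in the line, and the absence of Irf8 in the progenitors, changed the network. The labels give no age, sex or knockout allele, and number the replicates only as experiments 1 and 2.

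MYC, MYCN and MYCL are transcription factors that pair with MAX, bind the E-box sequence and raise genes of ribosome production, nucleotide synthesis and cell growth. MAX also pairs with the MXD proteins (Mxd1, Mxd3, Mxd4 and Mxi1), with MNT and with MGA, and these pairs repress genes at the same sites, in the case of MXD and MNT by recruiting the SIN3 corepressor. In myeloid cells Myc is known as a gene of proliferating progenitors, and Mxd1 as a gene induced when granulocytes and monocytes mature.

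RefSeq promoters (GRCm38.p6), from 250 bases before to 50 bases after a transcription start, were found for 9 of the 10 genes. Those shown are the promoter of Mycn, on which the report turns, that of Mxd1, the member of the network that rose most in the line, and the 3 that hold the network's own E-box. All run 5′ to 3′ on the gene's strand, and capitals mark matches on either strand to CACGTG (the E-box), TTTGGCGC (an E2F-type site) or TTGCNNAA (a C/EBP-type site). Each motif was sought apart from the others, and an ETS and IRF composite site and an IRF-type site were sought too. The letters to search for were chosen after the promoters had been read.
Mycn, chr12:12941787-12942086, minus strand: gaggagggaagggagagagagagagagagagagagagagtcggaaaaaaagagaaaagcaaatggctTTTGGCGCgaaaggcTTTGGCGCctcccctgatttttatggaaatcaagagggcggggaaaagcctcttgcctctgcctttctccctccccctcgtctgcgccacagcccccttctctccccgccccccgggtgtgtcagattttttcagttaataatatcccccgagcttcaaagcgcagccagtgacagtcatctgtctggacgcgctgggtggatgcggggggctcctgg
Mxd1, chr6:86669110-86669409, minus strand: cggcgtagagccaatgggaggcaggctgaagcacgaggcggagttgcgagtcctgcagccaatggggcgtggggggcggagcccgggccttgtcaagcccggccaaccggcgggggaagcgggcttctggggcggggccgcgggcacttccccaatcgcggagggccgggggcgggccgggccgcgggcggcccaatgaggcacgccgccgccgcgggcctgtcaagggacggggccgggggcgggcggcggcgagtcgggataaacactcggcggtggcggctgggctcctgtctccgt
Mnt, chr11:74830674-74830973, plus strand: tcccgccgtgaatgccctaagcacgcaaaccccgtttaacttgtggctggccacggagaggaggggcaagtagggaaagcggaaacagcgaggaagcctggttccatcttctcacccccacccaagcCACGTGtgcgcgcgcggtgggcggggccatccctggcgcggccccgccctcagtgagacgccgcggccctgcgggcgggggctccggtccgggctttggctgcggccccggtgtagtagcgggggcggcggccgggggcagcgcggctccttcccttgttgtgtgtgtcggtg
Mxd4, chr5:34187661-34187960, minus strand: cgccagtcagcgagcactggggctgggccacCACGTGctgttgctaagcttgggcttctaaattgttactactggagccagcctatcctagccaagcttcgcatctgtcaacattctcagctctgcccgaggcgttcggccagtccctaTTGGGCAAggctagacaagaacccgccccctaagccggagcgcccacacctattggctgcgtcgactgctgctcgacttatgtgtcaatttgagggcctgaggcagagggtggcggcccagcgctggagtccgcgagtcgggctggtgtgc
Max, chr12:76962199-76962498, minus strand: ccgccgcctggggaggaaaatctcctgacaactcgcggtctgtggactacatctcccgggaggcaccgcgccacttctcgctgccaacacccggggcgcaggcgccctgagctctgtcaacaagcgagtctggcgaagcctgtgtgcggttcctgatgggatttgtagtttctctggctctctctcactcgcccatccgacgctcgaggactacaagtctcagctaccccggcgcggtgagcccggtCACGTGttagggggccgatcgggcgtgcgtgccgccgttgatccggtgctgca
The Mycn promoter held TTTGGCGC at 2 places, ending 175 and 160 bases before the start, and 0.514% of 32851 mouse promoters of the same length held it. CACGTG ended 117 bases before the start in Mnt and 213 bases before it in Mxd4, and lay across the start in Max, against 7.15% of all promoters. TTGCNNAA was in the Mxd4 promoter and in 10.8% of all promoters. The ETS and IRF composite site was in 1 of the 3 Mxi1 promoters and in 2.72% of all, and the IRF-type site was in none of the family's 11 promoters and in 3.44% of all. Myc had no entry. These are matches of letters only.

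The signal of a probe is given as log2 of the processed signal over the 75th percentile of its array, so 0 is the 75th percentile. That percentile was 67.8 and 69.9 signal units in Irf8KO MDPs, and 76.7 and 81.0 in WT MDPs. For cMoPs it was 455.6 and 459.3 without Irf8, and 544.2 and 568.1 in WT. In the line it was 445.3 and 460.2 with empty vectors, and 367.0 and 368.6 with IRF8. With C/EBPalpha it was 214.6 and 218.3, and with both factors 147.3 and 153.8. It therefore followed the group, and every difference is relative to it. Replicate arrays correlated at 0.995 to 0.998. Each difference carries its standard error (SE, n = 2 arrays a group). This is limma's moderated SE, from a spread shared by the 4 groups of a system, and not the spread of a single group. A gene is said to rise or fall where limma's p, adjusted over every gene tested, was below 0.05. In bulk samples fewer cells of a type and less RNA per cell cannot be told apart. The labels do not say that replicates came from separate animals, so p-values measure the spread between these arrays. MDPs, cMoPs and the line each had a slide of their own, and within slides C/EBPalpha and the cMoP genotype followed the slide rows, while IRF8 and the MDP genotype followed the columns, so position and group cannot be told apart. Irf8 stayed well above background in Irf8KO MDPs (signal 11700 to 12200, against 19900 to 20200 in WT MDPs) and in Irf8KO cMoPs (26200 to 26700, against 88200 to 91100 in WT cMoPs), so its probe does not check that label. The Irf8 and Cebpa probes were not well above background in any group of the line, the transduced ones included, and do not check the vectors. All 13 genes of a progenitor list (such as Kit, Flt3, Csf1r and Mpo) were detected in every progenitor group, and 9 of the 13 could be tested in the line.

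Mycn, the MYC family member best known from neural and haematopoietic progenitors, had the lowest level of the line in cells with both factors. The log2 level was 1.10 and 1.14 with C/EBPalpha, 1.71 and 1.70 with IRF8, -3.39 and -3.01 with both, and 4.31 and 4.31 with empty vectors. The probe was well above background on all 8 arrays and no group overlapped another. In signal units the arrays with both factors read 14.7 and 18.3, and those with empty vectors 9140 and 8850. The values with both factors lay near the floor. The medians of those 2 arrays were 13.6 and 13.4, and 52.4% and 49.9% of their probes were well above background. The size of every Mycn difference with both factors rests on these low values. The log2 difference from empty vectors was -3.19 ± 0.091 with C/EBPalpha (9.14-fold lower), -2.60 ± 0.091 with IRF8 (6.08-fold lower) and -7.51 ± 0.091 with both (183-fold lower). The difference with both factors was the most negative of 13339 genes, the next being Gp1ba, a platelet receptor gene, at -4.90. With C/EBPalpha alone it was number 12 from the bottom and with IRF8 alone number 19. These ranks are given as a description, since the family was picked for the fall of Mycn on these arrays. With both factors the difference was -4.32 ± 0.091 from C/EBPalpha alone and -4.91 ± 0.091 from IRF8 alone. The sum of the separate differences was -5.80, against the -7.51 measured with both, an excess of -1.72 ± 0.13. Across the other settings this excess of Mycn ran between -2.40, in the deposited series table, and 0.20, with normexp on the median signals. That last setting also gave -5.54 for the difference between both factors and empty vectors.

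**Figure D1:**
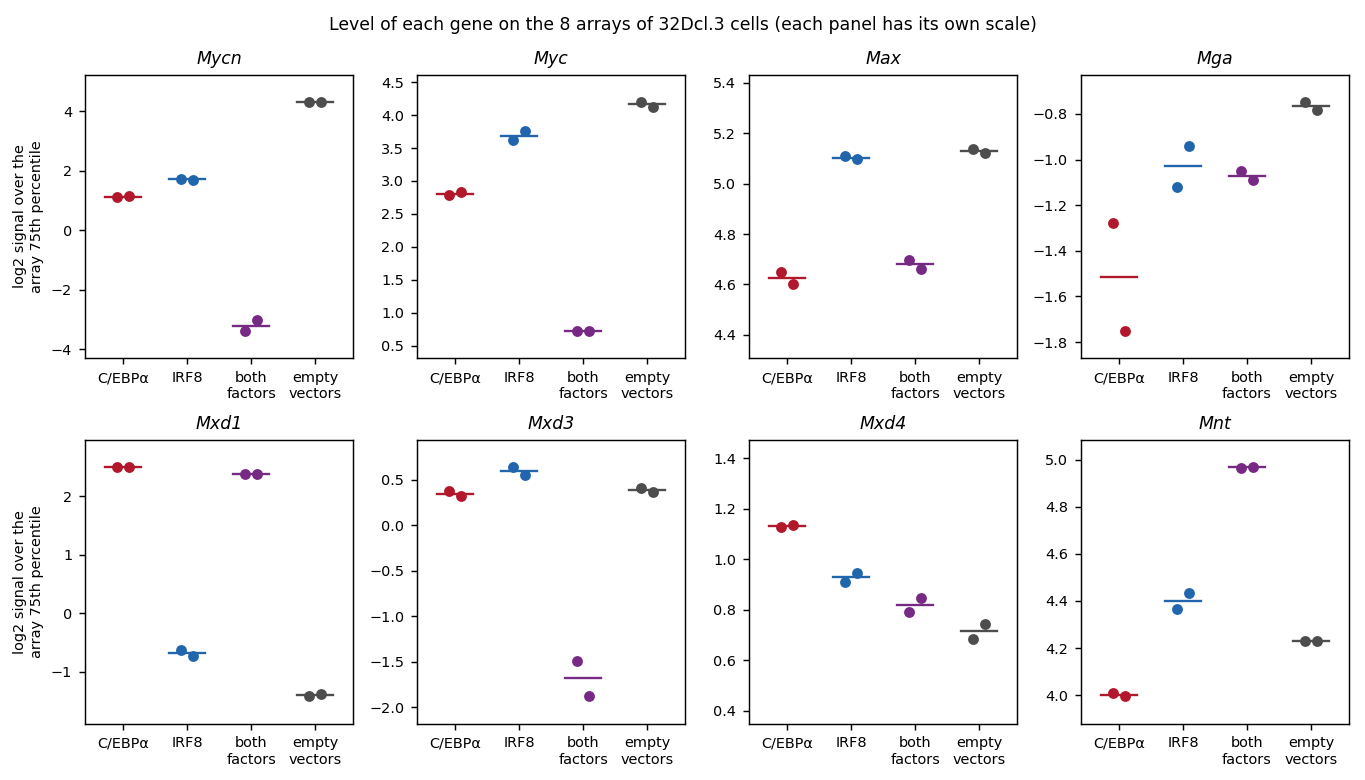
Log2 level (processed signal over the array's 75th percentile) of 8 genes of the network on each array of 32Dcl.3 cells, with a panel and a scale of its own for each gene. Points are arrays and lines are means of 2. Mycn and Myc have their lowest points with both factors, while Mxd1 sits high in both groups that received C/EBPalpha.

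Myc fell with each factor and most with both. Its log2 level was 2.79 and 2.83 with C/EBPalpha, 3.62 and 3.75 with IRF8, 0.72 and 0.72 with both, and 4.20 and 4.12 with empty vectors. The 4 groups did not overlap, with both factors lowest and C/EBPalpha next. Myc changed by -1.35 ± 0.047 with C/EBPalpha (limma adjusted p = 8.24e-11), by -0.48 ± 0.047 with IRF8 (adjusted p = 5.83e-06) and by -3.44 ± 0.047 with both (10.9-fold lower, adjusted p = 1.59e-14). With both factors it differed by -2.09 from C/EBPalpha alone and by -2.96 from IRF8 alone. Mycl, the third MYC gene, was not well above background on any of the 16 arrays.

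Max, the common partner, moved less. Arrays read 4.65 and 4.60 with C/EBPalpha, 5.11 and 5.10 with IRF8, 4.70 and 4.66 with both, and 5.14 and 5.12 with empty vectors. The groups with C/EBPalpha lay below the groups without it. Max fell by 0.50 ± 0.029 with C/EBPalpha and by 0.45 ± 0.029 with both, and did not pass the threshold with IRF8 (-0.028, 95% interval -0.091 to 0.035). For Max the difference with C/EBPalpha was -0.22 in the series table and -0.81 with arrays scaled to their median, and that with both factors was -0.10 under quantile normalization and -1.11 with arrays scaled to their median. Mga, a large MAX partner found in a polycomb complex, stood at -1.28 and -1.75 with C/EBPalpha, -1.12 and -0.94 with IRF8, -1.05 and -1.09 with both, and -0.75 and -0.78 with empty vectors. The C/EBPalpha group passed the threshold against empty vectors, at -0.75 ± 0.13 (adjusted p = 0.000266), and its 2 arrays differed by more than those of the other groups of the line for this gene. With both factors Mga differed by -0.31 ± 0.13 and did not pass (adjusted p = 0.051), but it passed under 7 of 19 other settings, reaching -0.96 with arrays scaled to their median. With IRF8 it differed by -0.26 ± 0.13 (adjusted p = 0.131) and passed under 4 of 19.

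Mxd1, a repressor partner of MAX, rose most of the network. Its log2 level was 2.50 and 2.50 with C/EBPalpha, -0.63 and -0.73 with IRF8, 2.39 and 2.38 with both, and -1.42 and -1.38 with empty vectors. Both groups that received C/EBPalpha were far above the other two. Mxd1 rose by 3.91 ± 0.052 with C/EBPalpha (15-fold, adjusted p = 3.83e-14), by 0.72 ± 0.052 with IRF8 (adjusted p = 4.06e-07) and by 3.79 ± 0.052 with both (adjusted p = 1.79e-14). The second Mxd1 probe gave 3.18, 0.77 and 3.20 for the same comparisons.

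Mxd3, the family member known to be expressed in proliferating cells, fell with both factors. On the log2 scale it read 0.37 and 0.32 with C/EBPalpha, 0.64 and 0.55 with IRF8, -1.49 and -1.88 with both, and 0.40 and 0.36 with empty vectors. The arrays with both factors stood apart from the other 6. Mxd3 changed by -2.07 ± 0.10 with both (adjusted p = 1.77e-09), and by -2.03 ± 0.10 against C/EBPalpha and -2.28 ± 0.10 against IRF8. The separate factors gave -0.037 (95% interval -0.27 to 0.19) and 0.21 (-0.020 to 0.44), and neither passed the threshold, although Mxd3 with C/EBPalpha was -0.35 and passed (adjusted p = 0.00518) with arrays scaled to their median.

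Mxd4, another repressor partner, lay within a narrow range. Its brighter probe read 1.13 and 1.14 with C/EBPalpha, 0.91 and 0.95 with IRF8, 0.79 and 0.85 with both, and 0.69 and 0.74 with empty vectors. It rose by 0.42 ± 0.049 with C/EBPalpha and by 0.21 ± 0.049 with IRF8, while the 0.10 ± 0.049 with both did not pass the threshold. The second probe gave 1.21, 0.52 and 1.12, so the 2 probes disagreed in size, most with both factors. Scaled to array medians, the brighter probe gave 0.11 with C/EBPalpha, which did not pass, and -0.55 with both, which passed as a fall. With both factors Mxd4 passed as a rise under 5 of 19 other settings, whose highest value was 0.61.

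Mnt, which also represses with MAX, was highest with both factors on the scaled log2 level. Its arrays read 4.01 and 3.99 with C/EBPalpha, 4.37 and 4.43 with IRF8, 4.97 and 4.97 with both, and 4.23 and 4.23 with empty vectors. The 4 groups did not overlap. In signal units before scaling Mnt read 4810 and 4620 with both, and 8640 and 8350 with empty vectors. Mnt rose by 0.74 ± 0.030 with both (adjusted p = 2.12e-10) and by 0.17 ± 0.030 with IRF8, and fell by 0.23 ± 0.030 with C/EBPalpha. The fall with C/EBPalpha was lost with the percentile taken over detected probes (-0.025) and under quantile normalization (-0.014), and the rise with both was 0.082 and lost with arrays scaled to their median. Mxi1, the remaining repressor of the family, was not well above background on any of the 16 arrays.

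Without Mycn, 7 members could be tested in the line, and all 7 were well above background on every array. With C/EBPalpha 6 of 7 passed (2 higher, 4 lower), where 78.7% of all genes did. With IRF8 4 of 7 passed (3 higher, 1 lower), where 48% of all genes did. With both factors 5 of 7 passed (2 higher, 3 lower), where 84.8% of all genes did. Both factors compared with C/EBPalpha alone gave 5 of 7 (2 higher, 3 lower), where 72.3% of all genes passed (34.4% higher, 37.9% lower). Both compared with IRF8 alone gave 5 of 7 (2 higher, 3 lower), where 82.2% of all genes passed (36.1% higher, 46.1% lower). Nothing is read from these shares, since the family was chosen in the same comparisons. These comparisons share control arrays.

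**Figure D2:**
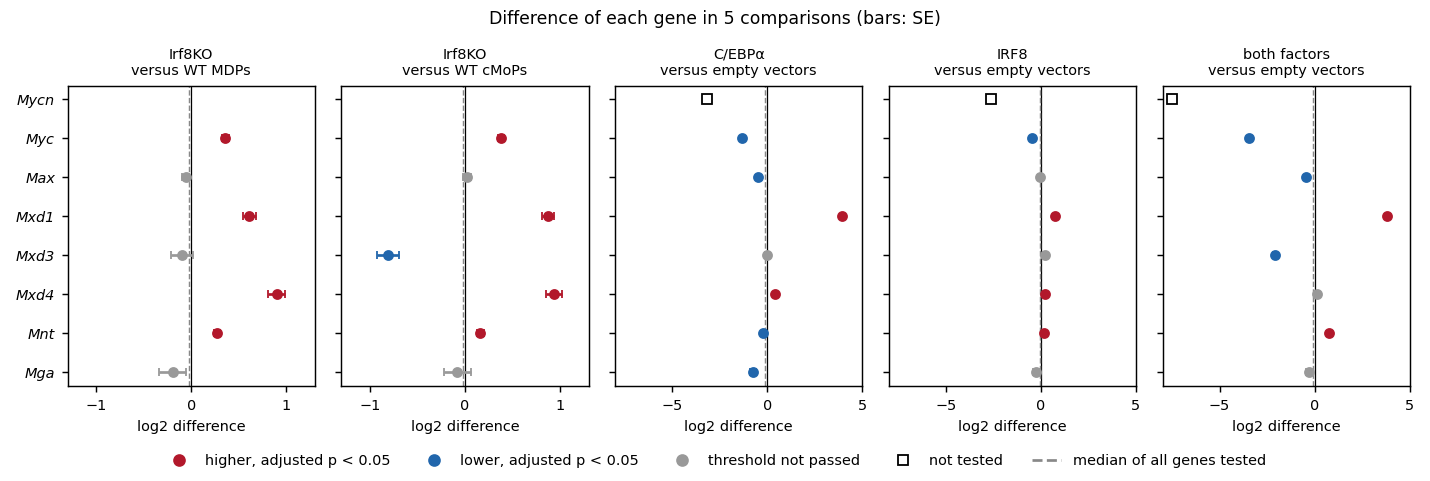
Log2 difference of each gene of the network in 5 comparisons, with bars for limma's moderated SE (2 arrays per group). Filled points passed limma's threshold (red higher, blue lower), grey points did not, open squares (Mycn) were not tested, and dashed lines mark the median of all genes. The axis of the progenitor panels spans a smaller range than that of the 32Dcl.3 panels. Mycn lies at -7.51 and Mxd1 at 3.79 with both factors.

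The interaction, the difference with both factors minus the sum of the separate differences, passed the threshold for 6 of 7 members (2 higher, 4 lower), where 55.6% of all genes passed (23.8% higher, 31.8% lower). For Myc the separate differences summed to -1.83, against -3.44 measured with both. Its interaction was -1.61 ± 0.066 (adjusted p = 2.77e-09). For Mxd1 the sum was 4.63, against 3.79 measured, with an interaction of -0.84 ± 0.074. For Mnt the sum was -0.061, against 0.74 measured, with an interaction of 0.80 ± 0.043. Mxd3 had the most negative interaction of the tested members, at -2.24 ± 0.15 (adjusted p = 1.54e-07). Mxd4 was at -0.53 ± 0.069 and Mga at 0.71 ± 0.19, and that of Mga was 0.32 and did not pass (adjusted p = 0.155) with arrays scaled to their median.

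The genes whose pattern over the 8 arrays of the line was most like that of Mycn were Car12, Slc5a11, Tespa1, Aunip and Srm, out of 11560 genes detected on all of them. Likeness was the root mean square difference after each gene's mean was subtracted, and it was 1.31 for Car12 and 1.43 for Srm, so none came near Mycn in range. Srm, which encodes spermidine synthase, is also among the MYC target genes listed. Car12 encodes a carbonic anhydrase. Its log2 level averaged -0.34 with C/EBPalpha, 1.79 with IRF8, -1.68 with both and 2.58 with empty vectors.

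**Figure D3:**
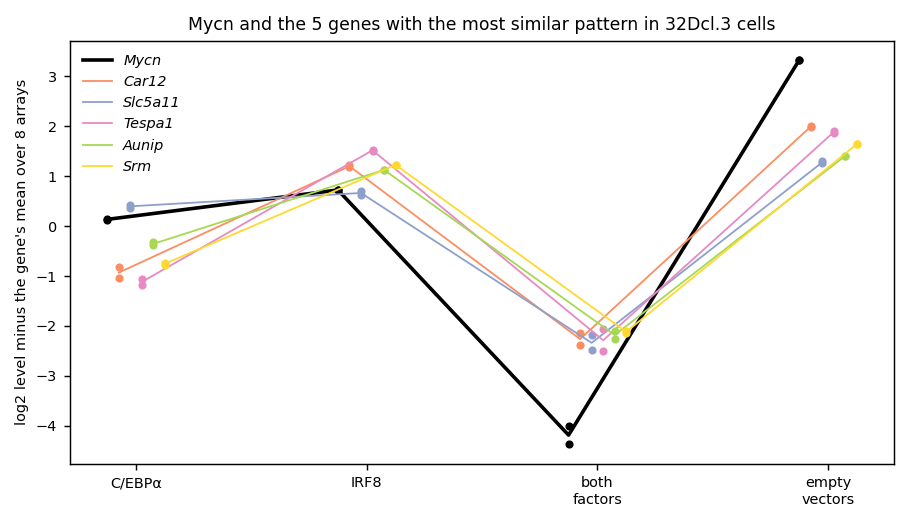
Log2 level minus the gene's mean over 8 arrays for Mycn (black) and the 5 genes with the most similar pattern, in the 4 groups of 32Dcl.3 cells. Points are arrays and lines join group means. All 6 genes are lowest with both factors and highest with empty vectors, and Mycn has the widest range.

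Of 40 genes listed as activated by MYC (nucleolar, translation, nucleotide and polyamine genes), 39 fell and 0 rose with C/EBPalpha, with a median of -1.55 beside -0.14 for all genes. With IRF8 32 fell and 1 rose (median -0.24, beside -0.031), and with both 38 fell and 0 rose (median -2.05, beside -0.096). The share of all genes that fell was 47.1% with C/EBPalpha, 25.3% with IRF8 and 46.8% with both. Srm read 3.87 and 3.91 with C/EBPalpha, 5.87 and 5.87 with IRF8, 2.51 and 2.54 with both, and 6.29 and 6.28 with empty vectors. It fell by 3.76 ± 0.028 with both factors, more than any other gene of the list. Slc19a1, the folate carrier gene, fell by 3.57 ± 0.041 and Ppat, of purine synthesis, by 3.09 ± 0.053. With C/EBPalpha alone Nolc1, a nucleolar protein gene, fell by 2.18 ± 0.029. The gene that rose past the threshold with IRF8 was Hspe1, a mitochondrial chaperone gene, by 0.11 ± 0.027, and some others did not pass. Tert, the telomerase gene, did not pass with C/EBPalpha (-0.18) or with both (-0.023), nor did Hspe1 with both (-0.0022). Over 19 alternative settings the list's median stayed between -1.86 and -1.34 with C/EBPalpha and between -2.70 and -1.76 with both. With IRF8 that median stayed between -0.26 and -0.20, while 24 to 35 genes fell and 0 to 1 rose.

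Of 16 genes listed as repressed by MYC (cell cycle inhibitors and growth arrest genes), 13 could be tested in the line. With C/EBPalpha 9 rose and 2 fell (median 0.57), with IRF8 8 rose and 3 fell (median 0.24), and with both 10 rose and 3 fell (median 1.86). The share of all genes that rose was 31.6%, 22.7% and 38% in the same order. Gadd45a, a growth arrest gene, read 2.93 and 2.87 with C/EBPalpha, -1.69 and -1.73 with IRF8, 1.20 and 1.38 with both, and -1.53 and -1.42 with empty vectors. It rose by 4.38 ± 0.071 with C/EBPalpha and by 2.77 ± 0.071 with both, and fell by 0.23 ± 0.071 with IRF8. Btg2 and Btg1, antiproliferative genes, rose by 3.06 ± 0.068 and 2.89 ± 0.046 with both. Thbs1 was at least 5.71-fold higher with C/EBPalpha, since it was not well above background with empty vectors. Pdgfrb fell by 1.47 ± 0.091 and Cdkn2c, a CDK inhibitor gene, by 0.92 ± 0.082 with both.

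**Figure D4:**
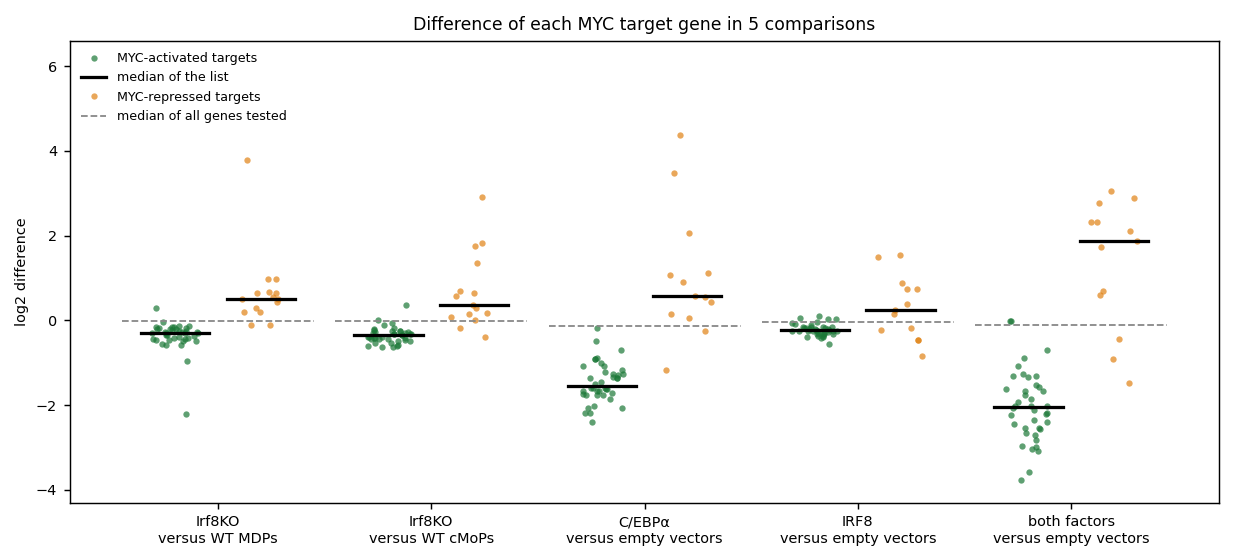
Log2 difference of each tested gene of the MYC-activated (green) and MYC-repressed (orange) lists in 5 comparisons. Black bars are list medians and dashed lines the median of all genes tested. With both factors the activated list has a median of -2.05 and the repressed list one of 1.86.

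Cofactors of the network were followed through 5 more lists, beside shares of all genes of 31.6% higher and 47.1% lower with C/EBPalpha, 22.7% and 25.3% with IRF8, and 38% and 46.8% with both. Of 13 tested MYC coactivators (acetyltransferase and chromatin remodelling subunits), 10 fell and 0 rose with C/EBPalpha, 7 fell and 1 rose with IRF8, and 11 fell and 1 rose with both. Ruvbl1, an ATPase of these complexes, read 4.37 and 4.38 with C/EBPalpha, 5.83 and 5.82 with IRF8, 3.73 and 3.73 with both, and 6.10 and 6.10 with empty vectors. It fell by 2.37 ± 0.026 with both, and the acetyltransferase gene Kat2a by 2.19 ± 0.033, while Kat5, also an acetyltransferase gene, rose by 0.31 ± 0.029. Of 15 SIN3 corepressor genes 11 fell and 1 rose with C/EBPalpha, and 12 fell and 3 rose with both. Rbbp7, a histone-binding subunit gene, fell by 1.58 ± 0.035 with both, and Arid4a rose by 1.04 ± 0.070. With IRF8 alone 3 fell and 2 rose.

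Of 9 genes of the MGA polycomb complex 8 fell and 1 rose with C/EBPalpha, and 8 fell and 0 rose with both, where Tfdp1, the gene of an E2F partner, fell by 2.08 ± 0.044. With IRF8 alone 3 fell. Of 16 tested genes of MYC protein turnover 14 fell and 1 rose with C/EBPalpha, 7 fell and 2 rose with IRF8, and 13 fell and 2 rose with both. The mitotic kinase genes Plk1 and Aurka, whose products stabilise MYC proteins, fell by 2.40 ± 0.029 and 2.12 ± 0.032 with both. Among 9 other E-box factors 3 rose and 2 fell with C/EBPalpha, 5 rose and 0 fell with IRF8, and 4 rose and 2 fell with both. Tfeb, a regulator of lysosomal genes, rose by 1.79 ± 0.12 with both and Mitf by 1.51 ± 0.055, while Tfap4, itself a MYC target, fell by 1.62 ± 0.11. The median of this list with C/EBPalpha was 0.0069, and -0.30 with arrays scaled to their median, where 3 rose and 6 fell. With both it was 0.43, and -0.23 with that scaling, where 3 rose and 4 fell.

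Markers of other cell types moved in the same comparisons of the line. Of all genes, 31.6% rose and 47.1% fell with C/EBPalpha, and 38% rose and 46.8% fell with both. Counts cover the listed markers that could be tested. All 11 tested genes of a late neutrophil list rose with C/EBPalpha and with both. Their summed level, relative to the array's 75th percentile, was 3314 to 3352 with C/EBPalpha, 47.4 to 47.4 with IRF8, 1814 to 1821 with both, and 72.4 to 73.8 with empty vectors. Mmp8 and Retnlg were not well above background with IRF8 or with empty vectors. They entered the test only through groups with C/EBPalpha, which favoured their rise. Summed erythroid markers were 12.5 to 13.4, 8.37 to 8.53, 6.27 to 6.36 and 22.1 to 22.5 in the same 4 groups, with 2 of 8 higher and 5 lower with both. Summed basophil, mast cell and eosinophil markers were 20.5 to 20.8 with C/EBPalpha, 27.2 to 28.5 with IRF8, 6.42 to 6.64 with both, and 37.7 to 37.9 with empty vectors, with 3 of 9 higher and 5 lower with both, where Cpa3 was not well above background. Summed T and NK cell markers were 36.7 to 37.6 with C/EBPalpha, 15.5 to 15.8 with IRF8, 20.8 to 21.2 with both, and 19.5 to 20.4 with empty vectors. The part of these in the results of the network was not tested.

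In the progenitors Mycn was not well above background on any array, with log2 levels of -5.33 to -4.63, and neither were Mycl and Mxi1. The other 7 members were well above background on all 8 arrays. The family was chosen by the Mycn values of the line and not by progenitor values. Its members and the other lists were chosen with earlier results of these data known.

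Myc was higher without Irf8 at both stages. Its log2 level was 4.62 and 4.57 in Irf8KO MDPs, against 4.24 and 4.24 in WT MDPs, and 3.95 and 4.0 in Irf8KO cMoPs, against 3.60 and 3.59 in WT cMoPs. No pair of groups overlapped. Myc rose by 0.36 ± 0.036 in Irf8KO MDPs (adjusted p = 2.02e-05) and by 0.38 ± 0.036 in Irf8KO cMoPs (adjusted p = 8.71e-06). The rise in cMoPs was 0.065 and did not pass (adjusted p = 0.456) with arrays scaled to their median, a scaling that moved the median of all genes there to -0.34 in place of -0.025.

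Mxd1 read 1.74 and 1.85 in Irf8KO MDPs, against 1.24 and 1.14 in WT MDPs, and 1.38 and 1.35 in Irf8KO cMoPs, against 0.48 and 0.51 in WT cMoPs. The knockout arrays were the higher at each stage. It rose by 0.61 ± 0.065 in MDPs (adjusted p = 3.00e-05) and by 0.87 ± 0.065 in cMoPs (adjusted p = 1.38e-06), while its second probe gave 0.19 and 0.71. Mxd4 read 3.09 and 3.25 in Irf8KO MDPs, against 2.29 and 2.25 in WT MDPs, and 2.02 and 2.01 in Irf8KO cMoPs, against 0.94 and 1.22 in WT cMoPs. It had the largest rises of the network in the progenitors, 0.90 ± 0.085 in MDPs and 0.93 ± 0.085 in cMoPs, and its second probe gave 0.78 and 0.85.

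Mnt read 4.93 and 4.91 in Irf8KO MDPs, against 4.65 and 4.66 in WT MDPs, and 4.04 and 4.04 in Irf8KO cMoPs, against 3.87 and 3.89 in WT cMoPs. It rose by 0.27 ± 0.032 in Irf8KO MDPs and by 0.16 ± 0.032 in Irf8KO cMoPs. With arrays scaled to their median these were 0.18 (adjusted p = 0.0563) and -0.15 (adjusted p = 0.0766). Max, at 5.23 and 5.20 in Irf8KO MDPs, against 5.29 and 5.27 in WT MDPs, did not pass the threshold (-0.059, 95% interval -0.14 to 0.026). In cMoPs Max read 4.42 and 4.47 without Irf8, against 4.38 and 4.47 in WT, and its difference of 0.021 (-0.065 to 0.11) did not pass, although it was -0.29 and passed with arrays scaled to their median. Mga did not pass in MDPs (-0.19, -0.51 to 0.12) or in cMoPs (-0.080, -0.40 to 0.24).

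Mxd3 was the member that fell, and it fell in cMoPs. It read -0.87 and -0.67 in Irf8KO cMoPs, against 0.00 and 0.08 in WT cMoPs, a change of -0.81 ± 0.11 (adjusted p = 0.000149). In MDPs it read 0.69 and 0.86 without Irf8, against 0.75 and 1.00 in WT, and the groups overlapped (-0.10 ± 0.11, adjusted p = 0.491). The difference between the effects in cMoPs and MDPs was -0.71 ± 0.16 (adjusted p = 0.00955), the only one of 7 members to pass, where 24.9% of all genes passed. Without WT cMoP replicate 2 it was -0.67 and no longer passed (adjusted p = 0.0513). The same difference for Mxd1 was 0.26 ± 0.092 (limma adjusted p = 0.0653), and 0.53 by its second probe. For Mxd1 this difference passed under 6 of 18 other settings, and for Max and Mnt under 1 each.

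In all, 4 of 7 members rose and 0 fell in Irf8KO MDPs, where 51.4% of all genes passed, 22.8% of them higher and 28.6% lower as shares of all genes. In Irf8KO cMoPs 4 rose and 1 fell, where 54.1% of all genes passed (23% higher, 31.1% lower). The members' median difference was 0.27 in MDPs and 0.16 in cMoPs, beside -0.025 for all genes in both. The counts of 4 of 7 in MDPs and 5 of 7 in cMoPs lie near those shares of all genes.

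**Figure D5:**
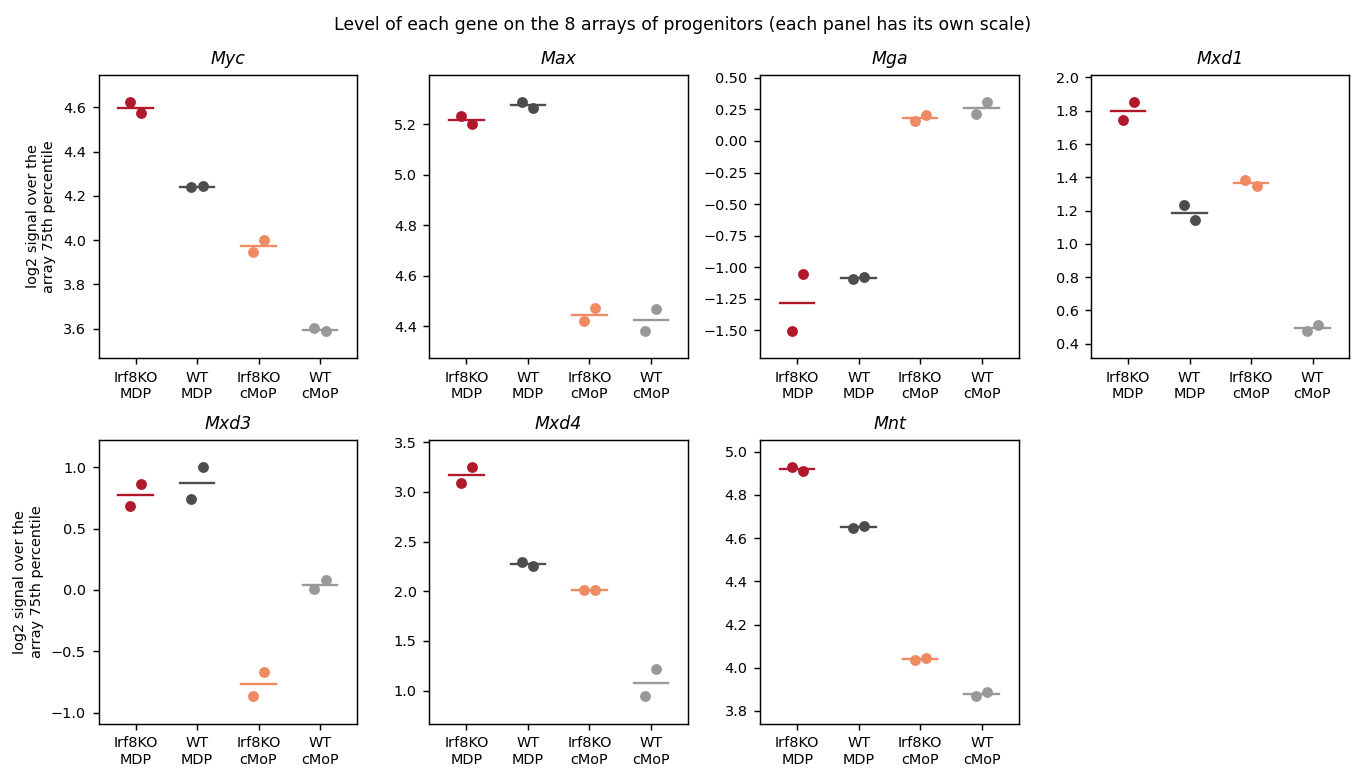
Log2 level (processed signal over the array's 75th percentile) of the 7 detected genes of the network on each array of progenitors, with a panel and a scale of its own for each gene. Points are arrays and lines are means of 2. Knockout points lie above WT points at both stages for Myc, Mxd1, Mxd4 and Mnt, and below them for Mxd3 in cMoPs. MDPs and cMoPs were on different slides.

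The genes most like Myc over the 8 progenitor arrays, of 10203 detected on all of them, were Dock11, Sirpa, Arhgap15, Dock1 and Gpt, with root mean square differences of 0.0207 to 0.0255 after each gene's mean on each slide was subtracted. Dock11 and Dock1 encode activators of small GTPases, and Sirpa encodes a myeloid receptor for CD47. Dock11 averaged 4.99 in Irf8KO MDPs, against 4.58 in WT MDPs, and 3.99 in Irf8KO cMoPs, against 3.63 in WT cMoPs.

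Among 39 tested genes of the MYC-activated list 36 fell and 1 rose in Irf8KO MDPs (median -0.29), and 35 fell and 1 rose in Irf8KO cMoPs (median -0.35). The list thus lay below the median of all genes in the knockouts. Myc, Mxd1, Mxd4 and Mnt were higher in the same knockouts, and Mxd3 was lower in cMoPs. With arrays scaled to their median the Myc rise in cMoPs was 0.065 and did not pass, and Mnt passed at neither stage. How the list and the members relate was not tested. The share of all genes that fell was 28.6% in MDPs and 31.1% in cMoPs. The gene that rose at both stages was Tfrc, the transferrin receptor gene. It read 2.03 and 2.10 in Irf8KO MDPs, against 1.75 and 1.76 in WT MDPs, and 1.87 and 1.93 in Irf8KO cMoPs, against 1.53 and 1.53 in WT cMoPs. Slc7a5, an amino acid transporter gene, fell by 0.95 ± 0.10 in MDPs, and Cad, of pyrimidine synthesis, was at least 2.00-fold lower there, being not well above background in Irf8KO MDPs. In cMoPs Shmt2, of one-carbon metabolism, fell by 0.64 ± 0.043 and Odc1, of polyamine synthesis, by 0.62 ± 0.040. Over 19 alternative settings the median ranged from -0.39 to -0.26 in MDPs and from -0.66 to -0.31 in cMoPs.

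Of 15 tested genes of the MYC-repressed list 11 rose and 0 fell in Irf8KO MDPs (median 0.52), and 9 rose and 2 fell in Irf8KO cMoPs (median 0.35, and 0.039 with arrays scaled to their median). The share of all genes that rose was 22.8% in MDPs and 23% in cMoPs. Cdkn1a, a CDK inhibitor gene, rose by 0.99 ± 0.073 and Ndrg1 by 0.98 ± 0.043 in MDPs, where Thbs1 was at least 3.33-fold higher. In cMoPs Gadd45b rose by 1.83 ± 0.045 and Ndrg2 by 1.76 ± 0.10, and Cdkn1c was at least 3.46-fold higher, while Cdkn2c fell by 0.39 ± 0.062.

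The cofactor lists were followed in the progenitors too. Of all genes, 22.8% rose and 28.6% fell in Irf8KO MDPs, and 23% rose and 31.1% fell in Irf8KO cMoPs. Of 13 coactivators 9 fell and 1 rose in Irf8KO MDPs, and 7 fell and 1 rose in Irf8KO cMoPs, with Actl6a lower by 0.40 ± 0.037 and 0.33 ± 0.037. The gene that rose at each stage was Trrap, by 0.20 ± 0.057 and 0.18 ± 0.057. Of 15 SIN3 genes 2 rose and 2 fell in MDPs, and 1 rose and 3 fell in cMoPs. Of 9 genes of the MGA complex 1 rose and 6 fell in MDPs, and 2 rose and 4 fell in cMoPs, with Pcgf6 at -0.55 ± 0.091 and -0.47 ± 0.091 and Rybp at 0.21 ± 0.044 and 0.84 ± 0.044. Of 17 turnover genes 6 rose and 5 fell in MDPs, and 0 rose and 8 fell in cMoPs, where Plk1 fell by 0.69 ± 0.034. Among 9 other E-box factors 2 rose and 3 fell in MDPs, and 1 rose and 3 fell in cMoPs. Mlx, the MAX-like partner, rose by 0.32 ± 0.056 in MDPs and by 1.33 ± 0.056 in cMoPs, and Tfeb fell by 0.74 ± 0.13 at each stage. The cMoP counts depended on scaling: with arrays scaled to their median, where the median of all genes was -0.34, 12 of 13 coactivators, 12 of 15 SIN3 genes, 7 of 9 genes of the MGA complex, 12 of 17 turnover genes and 7 of 9 other E-box factors fell.

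Markers of other cell types also moved between the knockout and WT progenitors. The lists held 11 erythroid, 13 basophil, mast cell and eosinophil, 10 B cell, 12 T and NK cell and 13 late neutrophil genes. Counts cover those that could be tested. Of all genes, 22.8% rose and 28.6% fell in Irf8KO MDPs, and 23% rose and 31.1% fell in Irf8KO cMoPs. A marker detected only in the group where it was high entered through that group, which favoured its direction. Summed erythroid markers were 0.924 to 0.999 in Irf8KO MDPs, against 18.3 to 18.8 in WT MDPs, with 6 of 7 lower. Gata1, Car1 and 4 others were not well above background in Irf8KO MDPs. Gata1 was well above background in WT MDPs and in no other progenitor group, so it entered the test only through WT MDPs. In cMoPs the sums were 1.28 to 1.35 without Irf8, against 9.13 to 9.19 in WT, with 4 of 7 lower. All 8 tested basophil, mast cell and eosinophil markers fell in Irf8KO MDPs, with sums of 39.4 to 39.4, against 56.9 to 59.0 in WT MDPs. Cpa3 and Fcer1a were well above background in WT MDPs and in no other progenitor group. They entered the test only through WT MDPs, so the filter favoured their fall and the count is a description. In cMoPs 3 of the 8 were higher and 4 lower without Irf8, with sums of 30.1 to 31.3, against 26.9 to 27.8 in WT. Of 5 B cell markers 4 were higher and 1 lower in Irf8KO MDPs, with sums of 51.6 to 52.2, against 36.7 to 37.7 in WT MDPs. For these 5 in cMoPs 3 were higher and 1 lower, with sums of 15.8 to 15.8, against 15.3 to 15.5 in WT. Of 5 T and NK cell markers 3 were higher and 0 lower in Irf8KO MDPs, with sums of 197 to 203, against 156 to 158 in WT MDPs. In Irf8KO cMoPs 2 were higher and 0 lower, with sums of 121 to 125, against 61.4 to 62.2 in WT cMoPs. All 10 late neutrophil markers rose in Irf8KO cMoPs, with sums of 813 to 842, against 48.7 to 49.2 in WT cMoPs. In MDPs 5 of the 10 rose and 3 fell, with sums of 109 to 112 in Irf8KO MDPs, against 12.9 to 14.8 in WT MDPs, and Ltf and Ngp not well above background in either. Their part in the differences of the network was not tested.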

How the data were processed

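Single-colour Agilent arrays were scanned and quantified with Agilent Feature Extraction 10.7.3.1, per the file headers, and the deposited processed signal is a background-subtracted intensity. Its spot flags (well above background, outlier, control) were used as deposited by the authors. The authors' table of series values, an intensity table, served as an alternative. Control and outlier spots were left out, spots of a probe averaged, and log2 taken of the signal over the array's 75th percentile. A probe entered when well above background on all arrays of 1 of the 4 groups of its system, and the brightest probe stood for a gene. Probes were named through RefSeq accessions: 26762 of 55681 had 1 symbol, 28919 none and 0 several. limma 3.58.1 in R 4.3.3 (lmFit on 4 group means, eBayes with trend, Benjamini-Hochberg adjustment) was fitted to 11964 genes in progenitors and 13339 in 32Dcl.3 cells, 8 arrays each, and was tested on simulated data. The 2 arrays of a group limit the precision. A gene that was dim in a whole group has only a bound. Intervals are 95% intervals of the fit.

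The members and lists were chosen with earlier results of these data known. Of each list, up to 3 genes per direction and comparison were named, those with the largest difference past the threshold; genes that missed the threshold were named after their values were seen. Alternatives were 2 other scalings, quantile normalization, the series table, other probe filters, the mean of a gene's probes, a replicate block, leaving out each replicate, and normexp (offset 50) on the median signals, the last chosen after seeing the data. Same-numbered arrays did not deviate together (correlations of -0.0615 to 0.0707). The main fit did not pair them, and such correlations cannot show whether same-numbered arrays were prepared together.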

Additional observations from a re-analysis of the deposited data

Results flagged for a closer look

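The Irf8KO effect on Mxd3 differed between stages, with a cMoP minus MDP difference of -0.71 (limma adjusted p = 0.00955). In 32Dcl.3 cells the effect of IRF8 differed with and without C/EBPalpha for 6 of 7 tested members by limma's interaction term. Of all genes 55.6% passed, and the family was chosen in the same comparisons, so nothing is read from that count. The interaction was -1.61 for Myc (adjusted p = 2.77e-09), -0.84 for Mxd1 (adjusted p = 1.71e-06), -2.24 for Mxd3 (adjusted p = 1.54e-07), -0.53 for Mxd4 (adjusted p = 4.73e-05), 0.80 for Mnt (adjusted p = 2.54e-08) and 0.71 for Mga (adjusted p = 0.00775).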

How the results depend on the processing

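The precision rests on 2 arrays a group, and slide position cannot be told apart from group. The number of members that passed stayed within 1.5 times its main value under every setting except for the difference of the knockout effect between cMoPs and MDPs. That count was 1, and it was 2 with arrays scaled to their median, 2 with the percentile over detected probes, 2 under quantile normalization, 2 with the mean of a gene's probes and 3 with normexp. Leaving out 1 replicate gave 0 to 2, with 0 without WT cMoP replicate 2. With the replicate block it was 1, and the block moved no member count. The cause was not tested for any change given here. With arrays scaled to their median the sign turned for Max (-0.29) and Mnt (-0.15) in Irf8KO cMoPs, for Mxd4 with both factors (-0.55), for Max with both factors against C/EBPalpha (-0.29), for Mnt with both against IRF8 (-0.13) and for the interaction of Max (-0.31). Mnt with C/EBPalpha was 3.93e-06 in the series table. Mxd4 with both factors against IRF8 was 0.18 with the percentile over detected probes and 0.25 with the mean of its probes. With normexp Mga with both against IRF8 was 0.18 and the interaction of Mycn 0.20. The call for Mga with both factors against C/EBPalpha was lost with arrays scaled to their median (0.097, adjusted p = 0.537), without C/EBPalpha replicate 2 (0.21, limma adjusted p = 0.115) and without both-factor replicate 1 (0.43, adjusted p = 0.0509). Among values of single genes 48 gained a call and 12 lost one. Sign changes are given only for Mycn and where the value passed the threshold in the main setting or in the alternative.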
